A study of Sus scrofa with 22 samples.

Results

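The inhibitory interneurons of the cerebellum come from a lineage that can be followed through a few genes, and 9 of them were read in the cerebella of piglets with blocked bile flow and of piglets with sham surgery. They are PTF1A, TFAP2A, TFAP2B, PAX2, KIT, LGI2, NXPH1, SORCS3 and GJD2, chosen by symbol. Each symbol matched 1 pig Ensembl identifier, so that 9 of the 31907 identifiers in the count tables belong to the set, and all 9 passed the filter on low counts.

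Golgi, basket and stellate cells, which release GABA, arise from progenitors of the ventricular zone that need the factor PTF1A. AP-2 factors act after PTF1A, PAX2 then marks the migrating precursors of the interneurons, and surface and secreted proteins such as KIT, NXPH1 and LGI2 accompany the settling of the cells and the making of their synapses. Purkinje cells come from the same PTF1A-dependent progenitors, and granule cells, which are excitatory, from another germinal zone. In a newborn piglet the cerebellum is still maturing, and interneurons settle late in it.

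RNA was taken from the cerebellum of 22 piglets (Sus scrofa) and sequenced as 150 bp read pairs. In 11 animals (7 female, 4 male) the bile duct had been tied at 8 days of age (bile duct ligation, BDL), which stops bile from leaving the liver. The other 11 (5 female, 6 male) had sham surgery at that age (SHAM), and both groups were followed for 3 weeks. The labels used here name no strain, litter, pooling, transgene or drug. If animals shared a litter, p-values cover only the spread between these animals. The series asks how a bile duct closed early in life affects balance and the brain.

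Libraries held 14811464 to 20046909 gene counts, and each library's median correlation with the others lay between 0.974 and 0.985, lowest in BDL replicate 2. Replicate numbers only name animals within a group. Levels are given in CPM, each gene's count scaled to a common library size after TMM normalization, and are not compared between genes, since no transcript lengths were used. The tissue carried its own defining markers: 10 granule cell genes summed to 5220 to 6731 CPM and 9 Purkinje cell genes to 2618 to 4112 CPM, while 8 genes of the brainstem and midbrain summed to 11.2 to 30.6 CPM. Mast cells and pigment cells also depend on KIT. Of 5 mast cell genes listed, only 3 had an identifier, and these summed to 0 to 0.995 CPM. The 5 pigment cell genes summed to 10.6 to 30.7 CPM. The part of these cells in the level of KIT was not tested. In bulk tissue, fewer cells of a type and less RNA per cell cannot be told apart.

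None of the 9 lineage genes passed the test of BDL against SHAM, which was edgeR's quasi-likelihood test with sex in the model and p-values adjusted over 14994 genes. The share of all tested genes that passed an adjusted p of 0.05 was 0%. At an unadjusted p of 0.05, 0 of the 9 and 4.96% of all tested genes passed, and limma-voom and DESeq2 called 0 and 1 of all tested genes, 0 of them lineage genes. Of the 9, 5 were on the lower side in BDL and 4 on the higher, against 49.7% of all tested genes on the lower side. Their median log2 fold change was -0.04, against 0.0006 over all genes. Leaving PTF1A aside, the 95% confidence intervals of the fold change lay between 0.808 and 1.22, so that a change of either sign beyond those bounds is outside the interval of each of the other 8 genes.

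**Figure D1:**
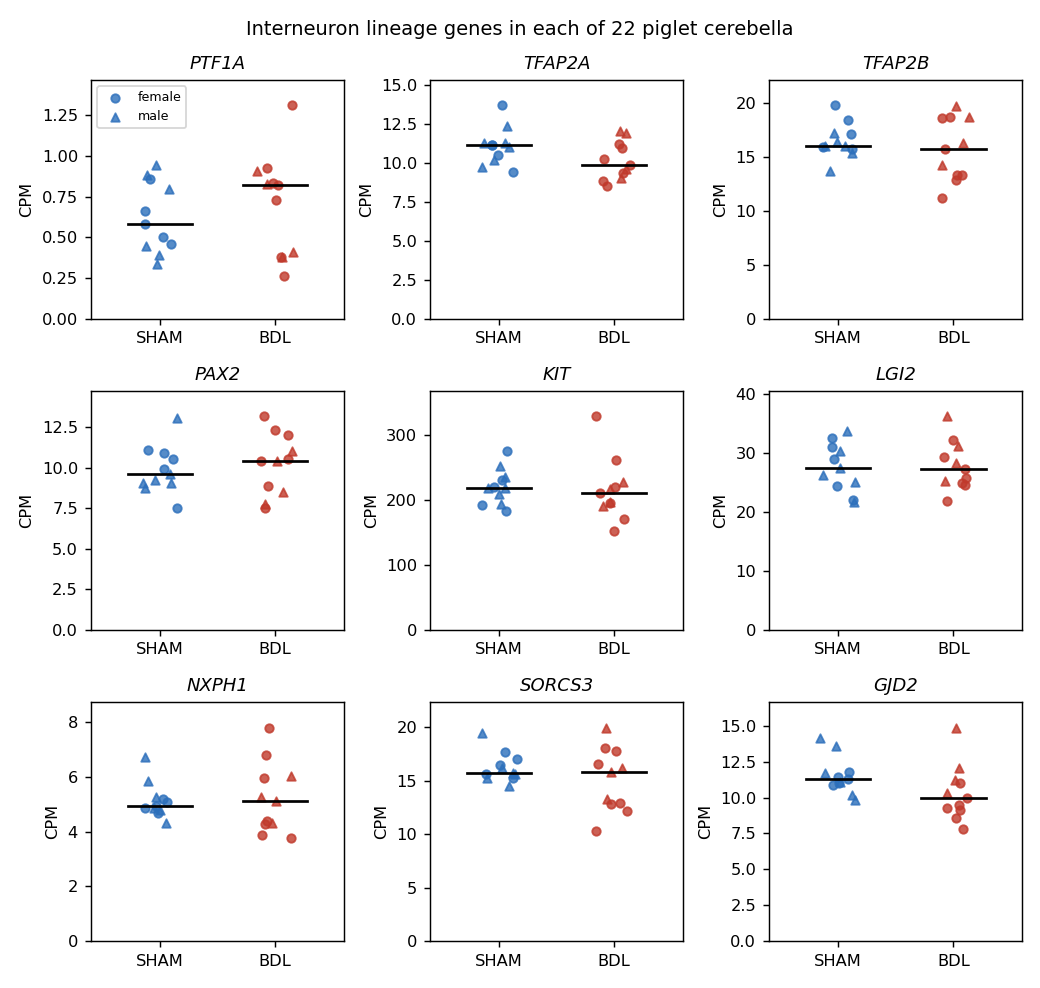
Level of the 9 lineage genes in each animal (CPM, vertical axes from 0), with SHAM in blue and BDL in red, females as circles, males as triangles and the group median as a bar. The groups overlap in every panel, and the lowest BDL values of TFAP2B, SORCS3 and GJD2 lie below the SHAM range.

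PTF1A (ENSSSCG00000030662, chromosome 10, 51817697 to 51820147), the basic helix-loop-helix factor at the head of the lineage, was close to the limit of what these libraries can measure. It had 5 to 23 counts per library. BDL animals had 0.261 to 1.31 CPM with a median of 0.822, and SHAM animals 0.333 to 0.945 CPM with a median of 0.585. The 2 ranges overlapped almost completely. The log2 fold change was 0.15 ± 0.27 (SE; adjusted p = 0.940), with a 95% confidence interval of 0.758- to 1.62-fold, so changes within those bounds are not excluded.

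TFAP2A (ENSSSCG00000001036, chromosome 7, 7221654 to 7244626) and TFAP2B (ENSSSCG00000025535, chromosome 7, 44745653 to 44774563) encode AP-2 transcription factors that follow PTF1A. TFAP2A ran from 8.51 to 12.01 CPM in BDL (median 9.84) and from 9.42 to 13.7 CPM in SHAM (median 11.11). Of the 11 BDL animals, 8 were below the SHAM mean and 4 were below every SHAM animal. Its log2 fold change was -0.12 ± 0.08 (SE; p = 0.149, adjusted p = 0.881). The locus overlaps a second annotated protein-coding gene, and the labels do not say whether the counting used strand.

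TFAP2B ran from 11.2 to 19.7 CPM in BDL (median 15.7) and from 13.7 to 19.8 CPM in SHAM (median 15.98). Again 4 BDL animals lay below the SHAM range, but others reached its top, so that the medians were close, with a log2 fold change of -0.07 ± 0.09 (SE; adjusted p = 0.931). Of the 2 paired factors, TFAP2A therefore had the larger difference in mean and TFAP2B the wider spread in BDL, with a coefficient of variation of 18.5% against 9.83% in SHAM.

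PAX2 (ENSSSCG00000010556, chromosome 14, 111822334 to 111914950), the paired-box factor that marks interneuron precursors, had similar ranges in the groups. BDL animals had 7.48 to 13.2 CPM (median 10.4) and SHAM animals 7.53 to 13.1 CPM (median 9.59). No BDL animal but replicates 1 and 2 lay outside the SHAM range, and the log2 fold change was 0.03 ± 0.10 (SE; adjusted p = 0.973).

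KIT (ENSSSCG00000008842, chromosome 8, 41402334 to 41492306) is the receptor tyrosine kinase of molecular layer interneurons, and Purkinje cells supply its ligand, encoded by KITLG. KIT ran from 152 to 328 CPM in BDL (median 210) and from 183 to 276 CPM in SHAM (median 219). The lowest and the highest animal were both BDL females, replicates 2 and 9. Its log2 fold change was -0.04 ± 0.10 (SE; adjusted p = 0.959). The ligand was as close: KITLG had 46.0 ± 6.75 CPM in BDL and 47.0 ± 4.20 CPM in SHAM (SD, n = 11 each), with a log2 fold change of -0.02 ± 0.07.

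LGI2 and NXPH1 encode secreted proteins of the synapse. LGI2 (ENSSSCG00000028927, chromosome 8, 18986549 to 19017238) binds receptors of the ADAM22 family. It ran from 21.8 to 36.2 CPM in BDL (median 27.3) and from 21.6 to 33.7 CPM in SHAM (median 27.5), with a log2 fold change of 0.03 ± 0.09 (SE; adjusted p = 0.971). No BDL animal lay below the SHAM range, and 1 lay above it. NXPH1 (ENSSSCG00000037207, chromosome 9, 78652691 to 78974101) is a neurexophilin, a secreted glycoprotein. It ran from 3.77 to 7.81 CPM in BDL (median 5.11) and from 4.33 to 6.73 CPM in SHAM (median 4.95). BDL animals lay on both sides of the SHAM range, 4 below it and 2 above it, and the log2 fold change was 0.03 ± 0.12 (SE; adjusted p = 0.974).

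SORCS3 (ENSSSCG00000010617, chromosome 14, 115587176 to 116202433) is a sorting receptor of the VPS10 family found in neurons. It ran from 10.3 to 20.0 CPM in BDL (median 15.8) and from 14.5 to 19.5 CPM in SHAM (median 15.7). The medians were alike, yet 5 of 11 BDL animals lay below every SHAM animal and 1 lay above. Fitted over all animals, the log2 fold change was -0.10 ± 0.09 (SE; adjusted p = 0.894). A long non-coding RNA gene is annotated over part of the locus.

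GJD2 (ENSSSCG00000036219, chromosome 1, 136310759 to 136328060) encodes connexin 36, the protein of the electrical synapses that join inhibitory interneurons. It ran from 7.80 to 14.9 CPM in BDL (median 9.95) and from 9.82 to 14.2 CPM in SHAM (median 11.3). Of the 11 BDL animals, 9 were below the SHAM mean and 5 below the SHAM range, while 1 male was above it. The log2 fold change was -0.13 ± 0.09 (SE; p = 0.141, adjusted p = 0.881), the smallest p of the 9 genes.

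The animals below the SHAM range were largely the same ones from gene to gene. BDL replicates 2 and 4 lay below it for 7 of the 9 genes each, and replicates 8 and 10 for 4 each; all 4 are females. Over all tested genes, those animals lay below the SHAM range for 18.7%, 13.5%, 13.5% and 7.79% of genes. They lay above it for 17.2%, 13.9%, 14.8% and 8.98%. Replicates 2, 4 and 8 thus had the largest shares of the BDL animals in both directions. Replicate 10 did not: replicate 11, a male, had 9.32% below and 11% above. Replicate 5, a male, lay within the SHAM range for all 9 genes, and replicate 9, a female, lay above it for KIT and NXPH1. The coefficient of variation was higher in BDL than in SHAM for 8 of the 9 genes, LGI2 being the exception, against 54.3% of all tested genes. The difference in spread was not tested.

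Marker sets of other cells were low in some of the same animals. Replicates 2 and 4 had Purkinje scores, the mean log2 CPM of 9 Purkinje cell genes, of 7.21 and 7.27, where SHAM animals had 7.31 to 7.75. The corresponding score of 6 astrocyte and Bergmann glia genes was 6.79, 6.98 and 7.17 in replicates 2, 4 and 8, where SHAM animals had 7.25 to 7.77. The score of 6 inhibitory transmission genes was 6.22, 6.38 and 6.31 in replicates 2, 4 and 10, where SHAM animals had 6.42 to 6.75. The oligodendrocyte score was low in replicate 2 alone, at 8.35, where SHAM animals had 8.79 to 10.35. The granule cell scores of replicates 2, 4, 8 and 10 lay within the SHAM range. Across the groups the Purkinje score was 7.54 ± 0.22 in BDL and 7.53 ± 0.13 in SHAM (SD, n = 11 each). The part of these markers in the low values of the lineage genes was not tested. With the Purkinje score added to the model, a choice made after the data were seen, 0 of the 9 genes were called. In that fit GJD2 had a log2 fold change of -0.16 ± 0.07 (p = 0.0306, adjusted p = 0.418). SORCS3 had one of -0.13 ± 0.07 (p = 0.0657) and TFAP2B one of -0.10 ± 0.07 (p = 0.123). At an unadjusted p of 0.05, 1 of the 9, GJD2, passed with the score in the model, as did 1584 of all 14994 tested genes. Without the score, 744 of all tested genes passed, so many more genes reached such a p once the score was added.

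**Figure D2:**
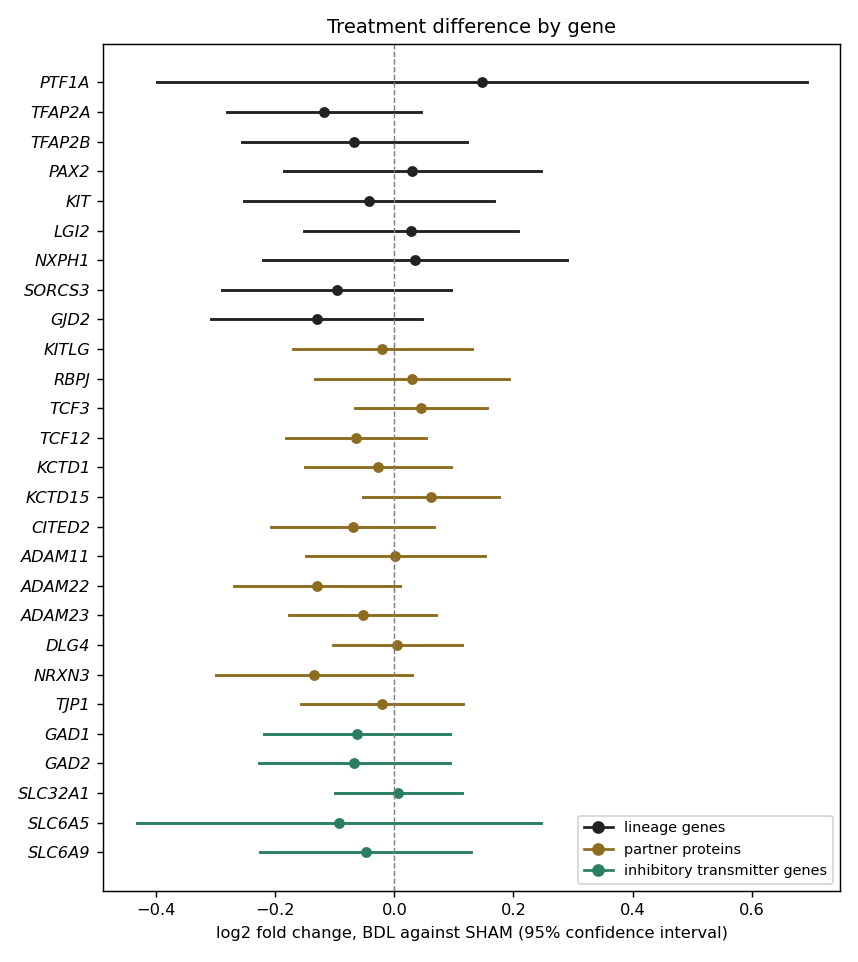
Log2 fold change of BDL against SHAM (horizontal axis, points) with its 95% confidence interval (lines) for the 9 lineage genes, genes of partner proteins and genes of inhibitory transmission that are reported here. Every interval shown includes 0, and PTF1A has the widest.

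No gene of a partner protein was called. Of 16 genes, 14 were tested, 5 on the higher and 9 on the lower side, with a median log2 fold change of -0.02. At an unadjusted p of 0.05 in edgeR's test, 1 of the 14 passed, on the lower side, against 4.96% of all tested genes. That gene is counted but not reported by name. The partners of PTF1A were close between groups: RBPJ, with which it forms its active complex, had a log2 fold change of 0.03 ± 0.08 (SE), and the E proteins TCF3 and TCF12 had 0.04 ± 0.05 and -0.06 ± 0.06. RBPJL, the relative of RBPJ that replaces it in the pancreas, had 6 counts over all libraries and was not tested. For the AP-2 factors, the repressors KCTD1 and KCTD15 had -0.03 ± 0.06 and 0.06 ± 0.06 and the co-activator CITED2 had -0.07 ± 0.07.

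Among the receptors of LGI proteins, ADAM22 had 222 ± 23.3 CPM in BDL and 244 ± 28.2 CPM in SHAM (SD, n = 11 each), and 10 of 11 BDL animals were below the SHAM mean. Its log2 fold change was -0.13 ± 0.07 (SE; p = 0.0649, adjusted p = 0.881). ADAM23 had -0.05 ± 0.06, ADAM11 had 0.001 ± 0.073 and DLG4, the scaffold to which ADAM22 binds, 0.005 ± 0.053. NRXN3 had -0.13 ± 0.08, and TJP1, the scaffold under connexin 36 junctions, had -0.02 ± 0.07.

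Of 8 other factors of the inhibitory lineage, 4 were tested and NEUROG1 had 0 counts. The tested genes had 0 called, with 1 on the higher and 3 on the lower side and a median log2 fold change of -0.12. LHX5, a homeobox gene of the early inhibitory lineage, had -0.18 ± 0.10 (SE; p = 0.0900) and KIRREL2, a cell adhesion gene downstream of PTF1A, had -0.25 ± 0.21. Relatives of the 9 genes were tested for 15 of 20, with 4 on the higher and 11 on the lower side and a median of -0.06. SORCS1, another VPS10 sorting receptor gene, had -0.29 ± 0.15 (p = 0.0622), and SORL1 had -0.12 ± 0.08. The genes TFAP2C, TFAP2D and TFAP2E, other AP-2 factors, had 6, 0 and 29 counts over all libraries and were not tested. PAX5, a relative of PAX2, had 15 counts and was not tested either.

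Genes of inhibitory transmission were tested for 6 of 6, with 1 on the higher and 5 on the lower side and a median log2 fold change of -0.07. GAD1, which makes GABA, had 258 ± 37.9 CPM in BDL and 270 ± 25.5 CPM in SHAM (SD, n = 11 each). GAD2, the other gene for this enzyme activity, had a log2 fold change of -0.07 ± 0.08 (SE). Of 7 other interneuron markers, 6 were tested, 5 on the higher and 1 on the lower side, with LYPD6 at 0.08 ± 0.06 and PTPRK at -0.10 ± 0.07. None of these genes was called. Markers of other cells had 0 called genes as well: their median log2 fold changes were 0.05 for 9 Purkinje cell genes, -0.02 for 10 granule cell genes, -0.09 for 6 astrocyte and Bergmann glia genes and 0.19 for 5 oligodendrocyte genes.

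Sex was the other labelled factor. Of the 9 lineage genes, 0 passed the adjusted test of females against males, where 0.06% of all tested genes did, and 1 passed an unadjusted p of 0.05, where 5.95% of all tested genes did. That gene was GJD2, at 10.1 ± 1.28 CPM in 12 females and 11.9 ± 1.77 CPM in 10 males (SD). Of the 10 males, 9 were above the female mean. Within SHAM the means were 11.3 CPM in 5 females and 11.8 CPM in 6 males. Within BDL they were 9.31 CPM in 7 females and 12.1 CPM in 4 males. The same BDL females enter the comparison of BDL and SHAM females below. The log2 fold change of females against males was -0.21 ± 0.09 (SE; p = 0.0194, adjusted p = 0.774). The other 8 genes lay between -0.08 and 0.10, and 6 of all 9 were on the lower and 3 on the higher side in females, against 50.4% and 49.6% of all tested genes.

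GJD2 overlapped less between BDL and SHAM among females than among males, as a description. The 7 BDL females had 7.80 to 11.01 CPM (median 9.28) and the 5 SHAM females 10.9 to 11.8 CPM (median 11.3). Of the 7 BDL females, 6 were below every SHAM female, a pattern that 0.907% of all tested genes had. GJD2 was singled out after its values were seen. The range of the SHAM females is narrow: their SD was 0.365 CPM around a mean of 11.3 CPM. That is less than the counting error alone, which was 7.24% of the mean over all libraries. The 4 BDL males had 10.3 to 14.9 CPM (median 11.7) and the 6 SHAM males 9.82 to 14.2 CPM (median 11.4). BDL replicate 6, at 14.9 CPM, was above every SHAM male, and the ranges otherwise overlapped. Fitted within females alone, the log2 fold change was -0.28 ± 0.10 (SE; p = 0.0151, adjusted p = 0.815), and within males alone 0.04 ± 0.14 (p = 0.762).

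The test of the difference between the sexes, the interaction of treatment and sex, called 0 of the 9 genes, and 0% of all tested genes passed it. At an unadjusted p of 0.05, 0 of the 9 and 4.6% of all tested genes passed. Of the 9, 5 were on the lower side and 4 on the higher, against 48.5% and 51.5%. GJD2 had an interaction of -0.32 ± 0.16 on the log2 scale (SE; p = 0.0622, adjusted p = 0.917). TFAP2B had -0.36 ± 0.18 (p = 0.0518, adjusted p = 0.917). Its level was 14.8 ± 2.93 CPM in 7 BDL and 17.4 ± 1.72 CPM in 5 SHAM females (SD), and 17.2 ± 2.46 CPM in 4 BDL and 15.8 ± 1.20 CPM in 6 SHAM males. The mean of TFAP2B was thus lower in BDL females and higher in BDL males than in SHAM animals of the same sex, but the difference between the sexes did not pass. The 4 females that lay below the SHAM range for 4 or more genes each carried at least 1 of the low marker scores given above. The part of those scores in the female values was not tested.

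**Figure D3:**
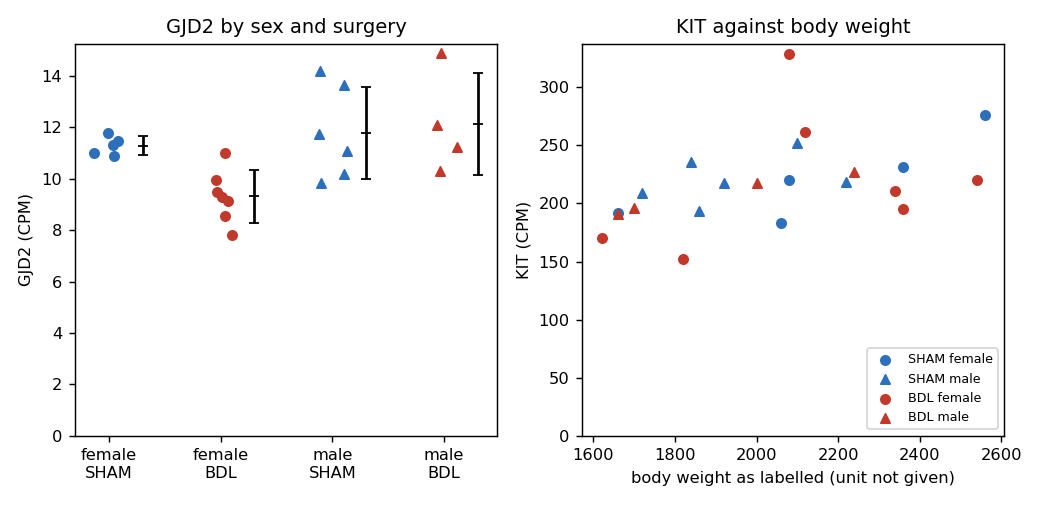
Left, GJD2 in each animal (CPM, axis from 0) by sex and surgery, with the mean and SD of each group beside the points; BDL females centre on 9.31 CPM and SHAM females on 11.3 CPM, while the males overlap. Right, KIT in each animal (CPM, axis from 0) against the labelled body weight, whose unit is not given; the lightest BDL females are low and the highest value is a BDL female of middle weight.

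Body weight, labelled without a unit, was tested per standard deviation beside sex and treatment. Of the 9 genes, 0 passed the adjusted test, as did 0% of all tested genes, and 1 passed an unadjusted p of 0.05, as did 7.39% of all tested genes. The 1 gene was KIT, with a slope of 0.13 ± 0.05 on the log2 scale per SD of weight (SE; p = 0.0161, adjusted p = 0.573). Leaving out any 1 animal moved that slope between 0.11 and 0.15. At an unadjusted p of 0.05 in edgeR's test, 0 of the 9 genes passed without BDL replicate 4 or without SHAM replicate 2. The same held in females only and in males only. The slope was positive in 8 of the 9 genes, against 50.3% of all tested genes, and LGI2 was the exception at -0.05 ± 0.05.

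Although the groups did not separate, some of the lineage genes varied together from animal to animal. Correlations were computed on log2 CPM (prior count 2) after subtracting the mean of each of the 4 sex-by-treatment groups, over 22 animals, with two-sided permutation tests within those groups and adjustment over the 36 pairs. Of 36 pairs, 9 passed. TFAP2B, KIT, NXPH1 and SORCS3 were correlated in all 6 of their pairs, GJD2 joined NXPH1 and SORCS3, and TFAP2A joined KIT.

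The strongest pair was TFAP2B with NXPH1, at Pearson r = 0.85 (permutation p = 3e-05, adjusted p = 0.00108) and Spearman rho = 0.87 (permutation p = 2e-05). Without the 2 animals farthest from the median of TFAP2B it was 0.86, and without the 2 farthest in NXPH1 it was 0.71. NXPH1 and SORCS3 had r = 0.83 (permutation p = 0.00031, adjusted p = 0.00558) and rho = 0.84 (permutation p = 0.00028). TFAP2B and SORCS3 had r = 0.78 (permutation p = 0.00114, adjusted p = 0.0100) and rho = 0.79 (permutation p = 0.00064). These 3 genes thus varied as a group. Without the 2 animals farthest in either gene, r was 0.77 for NXPH1 and SORCS3, and it was 0.75 to 0.77 for TFAP2B and SORCS3.

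KIT followed them at r = 0.73 with NXPH1, 0.71 with SORCS3 and 0.69 with TFAP2B (adjusted permutation p = 0.0100, 0.0100 and 0.0221). Without the 2 animals farthest in KIT, the first and second of these were 0.52, and without the 2 farthest in NXPH1 the first was 0.43. The call of KIT with NXPH1 was lost in 1 and that of KIT with TFAP2B in 2 of the 22 fits that leave out 1 animal. GJD2 was correlated with SORCS3 at r = 0.66 (adjusted permutation p = 0.0114) and with NXPH1 at 0.61 (0.0221). Neither call held throughout: by Spearman's rho, SORCS3 with GJD2 was at 0.56 (adjusted permutation p = 0.0563), and NXPH1 with GJD2 was at r = 0.46 without centring on the groups (0.117) and lost its call in 4 of the 22 fits. TFAP2A and KIT passed narrowly at r = 0.53 (adjusted permutation p = 0.0476), and the call was lost when any of 15 of the 22 animals was left out.

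Genes with closely related roles were not necessarily among the pairs. The AP-2 factors TFAP2A and TFAP2B had r = 0.25 (adjusted permutation p = 0.557), and PTF1A and PAX2 had r = -0.38 (0.322). LGI2 and PTF1A were in no called pair, and for PTF1A the counting error alone, at 29.3% of the mean, limits what a correlation can reach. PAX2 was in no called pair either, its highest being 0.47 with NXPH1.

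**Figure D4:**
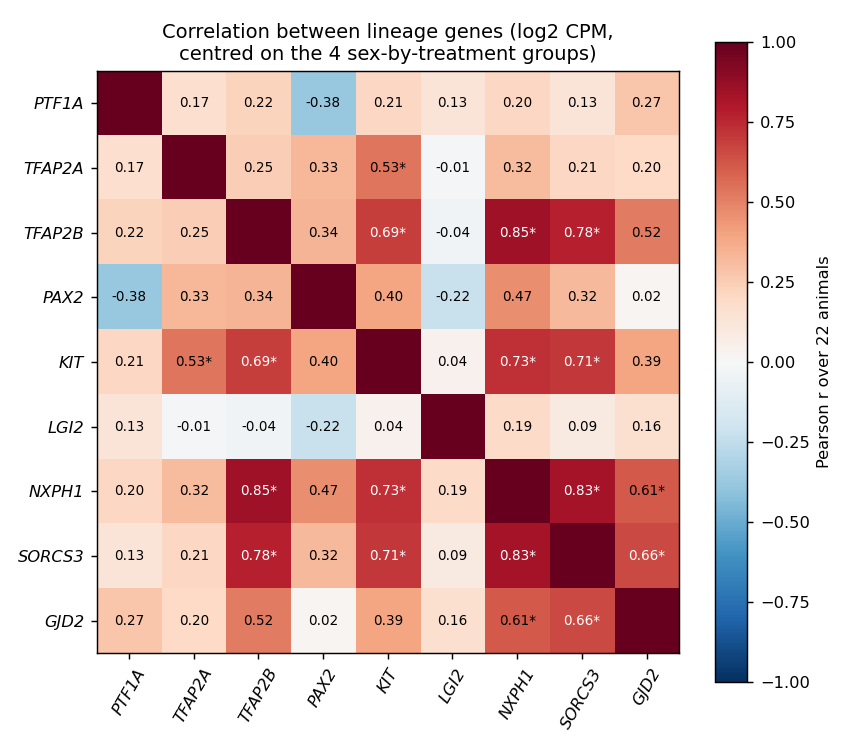
Pearson correlation of each pair of lineage genes over 22 animals (colour scale from -1 to 1, values printed), on log2 CPM centred on the 4 sex-by-treatment groups; stars mark an adjusted permutation p under 0.05. The block of TFAP2B, KIT, NXPH1 and SORCS3 lies between 0.69 and 0.85, while the LGI2 row stays between -0.22 and 0.19.

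The called correlations were higher within BDL than within SHAM. Within the 11 BDL animals, TFAP2B and NXPH1 had r = 0.89, NXPH1 and SORCS3 0.92 and KIT and NXPH1 0.90. Within the 11 SHAM animals, the same pairs had 0.68, 0.43 and 0.18, and 0 of the 36 pairs passed. The difference between the groups was not tested. SHAM animals also spanned a narrower range for each of these 4 genes, with coefficients of variation of 8.58% to 12.7% against 18.5% to 24.7% in BDL.

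Other genes of the tissue reached correlations of this size as well. An r as high as that of TFAP2B with NXPH1 was reached with TFAP2B by 0.0734% of all tested genes and with NXPH1 by 0.273%. An r as high as that of KIT with NXPH1 was reached with KIT by 0.147% and with NXPH1 by 2.55%, so that NXPH1 varied along with many more genes than KIT did. For NXPH1 with GJD2 the shares were 6.86% with NXPH1 and 1.36% with GJD2. For SORCS3 with GJD2 they were 2.96% and 0.534%, and for TFAP2B with KIT 2.19% and 0.373%, in the order named. The share of called pairs among other genes was not computed. The genes with the highest r, given as a description over 22 animals and 12316 genes, were HMBOX1 (0.93) and ALG11 (0.93) for NXPH1, HSP90AB1 (0.88) and ZEB1 (0.87) for TFAP2B, and FRYL (0.86) and PPP2R3A (0.85) for SORCS3. For KIT they were SLC1A3 (0.85), the glutamate transporter of Bergmann glia, and PLPP3 (0.83). For GJD2 the highest was CHRM3 (0.78), a muscarinic acetylcholine receptor.

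The other 4 genes had nearest genes of other kinds. PAX2 was nearest to VPS8 (0.85) and PHF7 (0.84), PTF1A to CCNE2 (0.77) and UGP2 (0.76), LGI2 to NUDT7 (0.76) and GNB5 (0.76), and TFAP2A to DGAT2 (0.67) and GALNT15 (0.67). None of the 9 lineage genes was among the 2 nearest genes of another.

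Set beside the marker scores of 5 cell classes, a comparison added after the data were seen, 10 of 45 correlations passed the permutation test adjusted over the 45. The Purkinje score, which holds none of the 9 genes, followed NXPH1 at r = 0.87 (permutation p = 3e-05, adjusted p = 0.00135; rho = 0.83), TFAP2B at 0.80 (adjusted permutation p = 0.00337; rho = 0.79), GJD2 at 0.75 (0.006; rho = 0.73) and SORCS3 at 0.74 (0.0161; rho = 0.72). Without the 2 animals farthest in the lineage gene, these were 0.82, 0.81, 0.87 and 0.66. With the Purkinje score, an r as high was reached by 0.0867%, 0.834%, 1.71% and 2.05% of all tested genes, in the same order. The genes of the score are among those tested. KIT was between the called and the other genes, at r = 0.56 with the Purkinje score (permutation p = 0.0191, adjusted p = 0.0617), and at 0.81 within BDL and -0.11 within SHAM. PTF1A, TFAP2A, PAX2 and LGI2 had r between 0.15 and 0.26 with the Purkinje score.

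The score of inhibitory transmission followed NXPH1 (r = 0.80, adjusted permutation p = 0.0132) and SORCS3 (0.74, 0.0201). An r as high with that score was reached by 0.367% and 1.29% of all tested genes. Within SHAM, r was 0.54 for NXPH1 and 0.19 for SORCS3, against 0.87 and 0.88 within BDL. The call of SORCS3 was lost without BDL replicate 2 (adjusted permutation p = 0.0979). The score of astrocytes and Bergmann glia followed SORCS3 (0.69, 0.0287) and KIT (0.67, 0.0472). Here 2.58% and 3.25% of all tested genes reached an r as high with the score. By Spearman's rho neither glial relation passed (adjusted permutation p = 0.0831 and 0.0842), that of KIT was lost in 15 and that of SORCS3 in 4 of the 22 fits that leave out 1 animal, and within SHAM r was 0.20 for SORCS3 and 0.13 for KIT. The granule cell score went the other way, at r = -0.60 with KIT (adjusted permutation p = 0.0201) and -0.54 with SORCS3 (0.0472). With that score, 98.2% and 96.5% of all tested genes had an r at or above these values. The relation with SORCS3 was lost in 13 of those 22 fits, without centring (adjusted permutation p = 0.152) and without TMM scaling (0.137). The oligodendrocyte score had no called relation. With the Purkinje score regressed out of each gene, 0 of the 36 pairs of lineage genes passed: TFAP2B with NXPH1 was at 0.52 (adjusted permutation p = 0.239) and KIT with NXPH1 at 0.60 (0.177), and SORCS3 with GJD2 at 0.24. KIT with SORCS3 was at 0.53 (0.189) and NXPH1 with SORCS3 at 0.57 (0.189), and TFAP2A with KIT was at 0.55 (0.177), slightly above its value of 0.53 before the step, so that a lost call was not always a lower correlation.

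**Figure D5:**
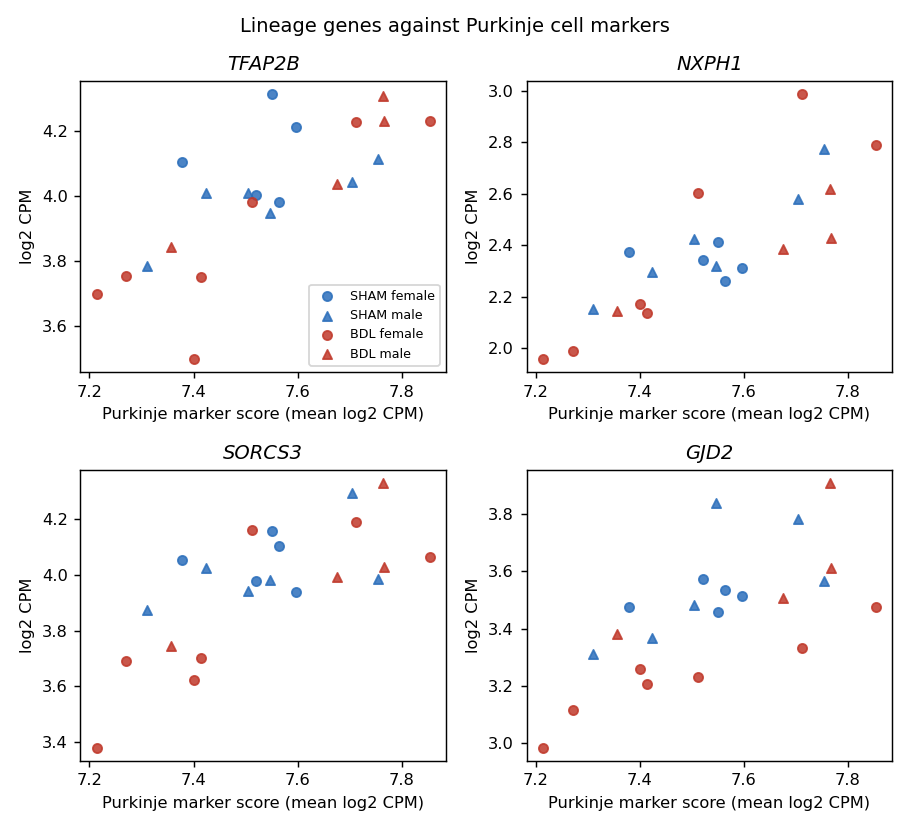
Log2 CPM of TFAP2B, NXPH1, SORCS3 and GJD2 (vertical axes) against the mean log2 CPM of 9 Purkinje cell markers (horizontal axes) in each of 22 animals, SHAM in blue and BDL in red, females as circles and males as triangles. All 4 genes are higher where the score is higher, and BDL replicates 2 and 4, at scores of 7.21 and 7.27, lie at the lower left.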

How the data were processed

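The deposited tables, 1 for each animal, give raw counts of reads for every Ensembl gene, as the authors counted them and with no normalization. Trim Galore, HISAT2, HTSeq, DESeq2 and the build Sscrofa11.1 are named in the submitters' processing notes, and their versions and the strand setting are not given in the sources used. The 5 lines that belong to no gene, 29.9% to 34.6% of counted reads, were left out. Symbols come from a table of gene names by Ensembl identifier, and positions from a RefSeq gene table of Sscrofa11.1. Genes were kept by filterByExpr (minimum count 10, total 15), leaving 14994, scaled by TMM and tested with edgeR 4.0.16 (R 4.3.3), quasi-likelihood, robust, on sex and treatment, with Benjamini-Hochberg adjustment. The interaction came from a model of 4 sex-by-treatment groups. Limma-voom (limma 3.58.1), DESeq2 (1.42.0), other filters, scalings and covariates were alternatives. The test was checked on simulated counts. Pair tests used 100000 resamples. Named genes are the 9 members, all partner genes, the 2 genes of smallest p in the lists close to the lineage, and each member's 2 nearest genes; lists of other cells are given as counts and medians. A few such genes are counted but not reported by name. The members and lists were chosen with earlier results of these data known.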

Additional observations from a re-analysis of the deposited data

Results flagged for a closer look

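Within the 4 sex-by-treatment groups, 2 of 36 sets of values held an animal set apart from the rest of its group by a gap large beside the group's range; chance alone gives about 1 in 20. PAX2 in SHAM replicate 1, a male, was at 13.1 CPM, and the next of the 6 SHAM males was at 9.59 CPM, a gap of 0.806 of the range. SORCS3 in SHAM replicate 3, also a male, was at 19.5 CPM, and the next was at 16.2 CPM, a gap of 0.675 of the range.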

How the results depend on the processing

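In every alternative run, 0 of the 9 genes were called for treatment, sex, interaction or weight. Over all genes, DESeq2 called 1 for BDL against SHAM, 23 for sex and 8 for weight. EdgeR called 31 for sex with no filter on low counts and 5 for weight in males only. Leaving out 1 animal gave 7 to 26 genes for sex and 0 to 9 for weight. Pairs called were 0 in SHAM only and 0 with the Purkinje score regressed out, and 6 to 10 with 1 animal left out. Score relations were 16 without centring, 0 in SHAM only and 5 to 13 with 1 animal left out, 5 without BDL replicate 2 and 6 without SHAM replicate 2.

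Some directions turned. For BDL against SHAM these were NXPH1 with the Purkinje score as a term (-0.020), LGI2 in females only (-0.069) and, in males only, PTF1A (-0.035), TFAP2B (0.13), PAX2 (-0.051), NXPH1 (-0.032), SORCS3 (0.017) and GJD2 (0.044). KIT for sex was -0.067 with weight in the model. Among correlations, TFAP2A with TFAP2B was -0.095 in SHAM only, and with the Purkinje score removed TFAP2B with GJD2 was -0.20 and NXPH1 with GJD2 -0.15. With 1 animal left out, the treatment difference spanned -0.029 to 0.071 for NXPH1, -0.11 to 0.0049 for KIT, -0.023 to 0.067 for LGI2 and -0.019 to 0.074 for PAX2. The sex difference spanned -0.0073 to 0.17 for PTF1A, -0.026 to 0.067 for KIT and -0.066 to 0.017 for TFAP2B. The interaction spanned -0.040 to 0.18 for KIT and -0.00041 to 0.21 for NXPH1, and the weight slope -0.031 to 0.18 for PTF1A and -0.0075 to 0.048 for GJD2. The cause was not tested.

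No paired analysis was possible because the labels give no replicate numbers, and those used here only name animals in order of accession. PTF1A is limited by its depth of 5 to 23 counts per library.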
